A study of Mus musculus with 66 samples.

Results

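Cytochrome P450 genes were followed through dextran sulfate sodium (DSS) colitis and its repair in the distal gut of the mouse. The set was chosen by name: every gene symbol made of Cyp, a family number, a subfamily letter and a gene number, apart from a single name that the rule leaves out. It held 93 of the 30452 genes in the deposited table. Wildtype C57Bl/6 mice, bought at 6 weeks of age, received 3% DSS for 6 days from day 0, and DSS is a polysaccharide that injures the colonic epithelium. Mice were killed on day 3, 6, 9, 14 or 20 (3 mice a day), and 4 mice that had received no DSS served as day 0. Each mouse gave mid-colon, rectum and anus, and the mice of days 9, 14 and 20 also gave the squamous neo-epithelium, a stratified lining found in the colon after the injury. In all, 19 mice gave 66 samples in 21 groups. All mice were wildtype, so the groups differ in section and in time after the start of DSS, and each day is a separate set of mice. Their age at dissection is not given. The muscle layer was removed before RNA was taken from the mucosa.

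P450 enzymes are haem proteins that insert oxygen into lipids, hormones, drugs and dietary compounds, and most of them draw electrons from a single reductase, Por. Members of the Cyp1, Cyp2 and Cyp3 families act mainly on foreign compounds and polyunsaturated fatty acids, Cyp4 enzymes oxidise the tail end of fatty acids and leukotrienes, and smaller families make or break down bile acids, steroid hormones and retinoic acid. In the intestine they are known as a first line of metabolism for swallowed compounds, and many of their genes are switched on by nuclear receptors such as the pregnane X receptor (Nr1i2) or by Hnf4a.

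Levels are given in TPM (the authors' transcript abundance scaled to a fixed total per sample, summed over the transcripts of a gene), as mean ± SD over mice with n = 3, or n = 4 at day 0. A difference is on the log2(TPM + 1) scale, with its standard error and a Benjamini-Hochberg adjusted p from limma over all genes tested. A gene entered a test once the number of samples at 1 TPM or more equalled the size of the smaller group compared, which 47 of the 93 did in at least 1 comparison. A gene could pass through 1 group alone. If it was near 0 in the other group, it could only be called higher in the group that carried it. A gene is said to have risen or fallen where that adjusted p is under 0.05. Counts from fits that left out a mouse are given without the share of all genes called in those fits. They show how firm the member calls are, not whether members moved more than other genes. The files hold no read counts, so the depth behind a value is unknown, and between 11268 and 13789 genes a sample reached 1 TPM. Every comparison with day 0 in a section uses the same 4 mice. Colonocyte markers defined mid-colon and rectum at day 0 (8 genes summing to 7369 to 10160 TPM), and squamous markers defined anus (10860 to 19700 TPM for 8 genes) and day 9 neo-epithelium (31350 to 33560 TPM). The anal sample of mouse 4 held 1877 TPM of the colonocyte markers against 521.5 to 920.8 TPM in mice 1 to 3, so anal results are given with and without it where it matters. Fewer cells of a type and less RNA per cell cannot be told apart in these tissue samples.

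Of the 93 genes, 49 reached a mean of 1 TPM in some group and 26 reached 10 TPM, while 44 stayed below 1 TPM throughout and 1 of those was at 0 in every sample. Family 2 supplied 29 of the 49 and family 4 supplied 9. The liver genes Cyp7a1, Cyp8b1, Cyp3a11, Cyp1a2 and Cyp2c29 were among those below 1 TPM in every group, as were the steroid genes Cyp11b1, Cyp19a1 and Cyp21a1. The summed level of the set was 2215 ± 231 TPM in uninjured mid-colon, 1992 ± 209 TPM in rectum and 693.6 ± 200 TPM in anus. In mid-colon a single gene, Cyp2c55, made up 45.5% of the sum, and in anus Cyp2f2 led with 26.6%. By day 9 the sum was 495.7 ± 172 TPM in mid-colon and 403.6 ± 78.2 TPM in rectum, and by day 20 it was 1853 ± 407 and 1696 ± 595 TPM. The heat map of levels shows the separate colonic and anal repertoires and the trough at day 9.

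**Figure D1:**
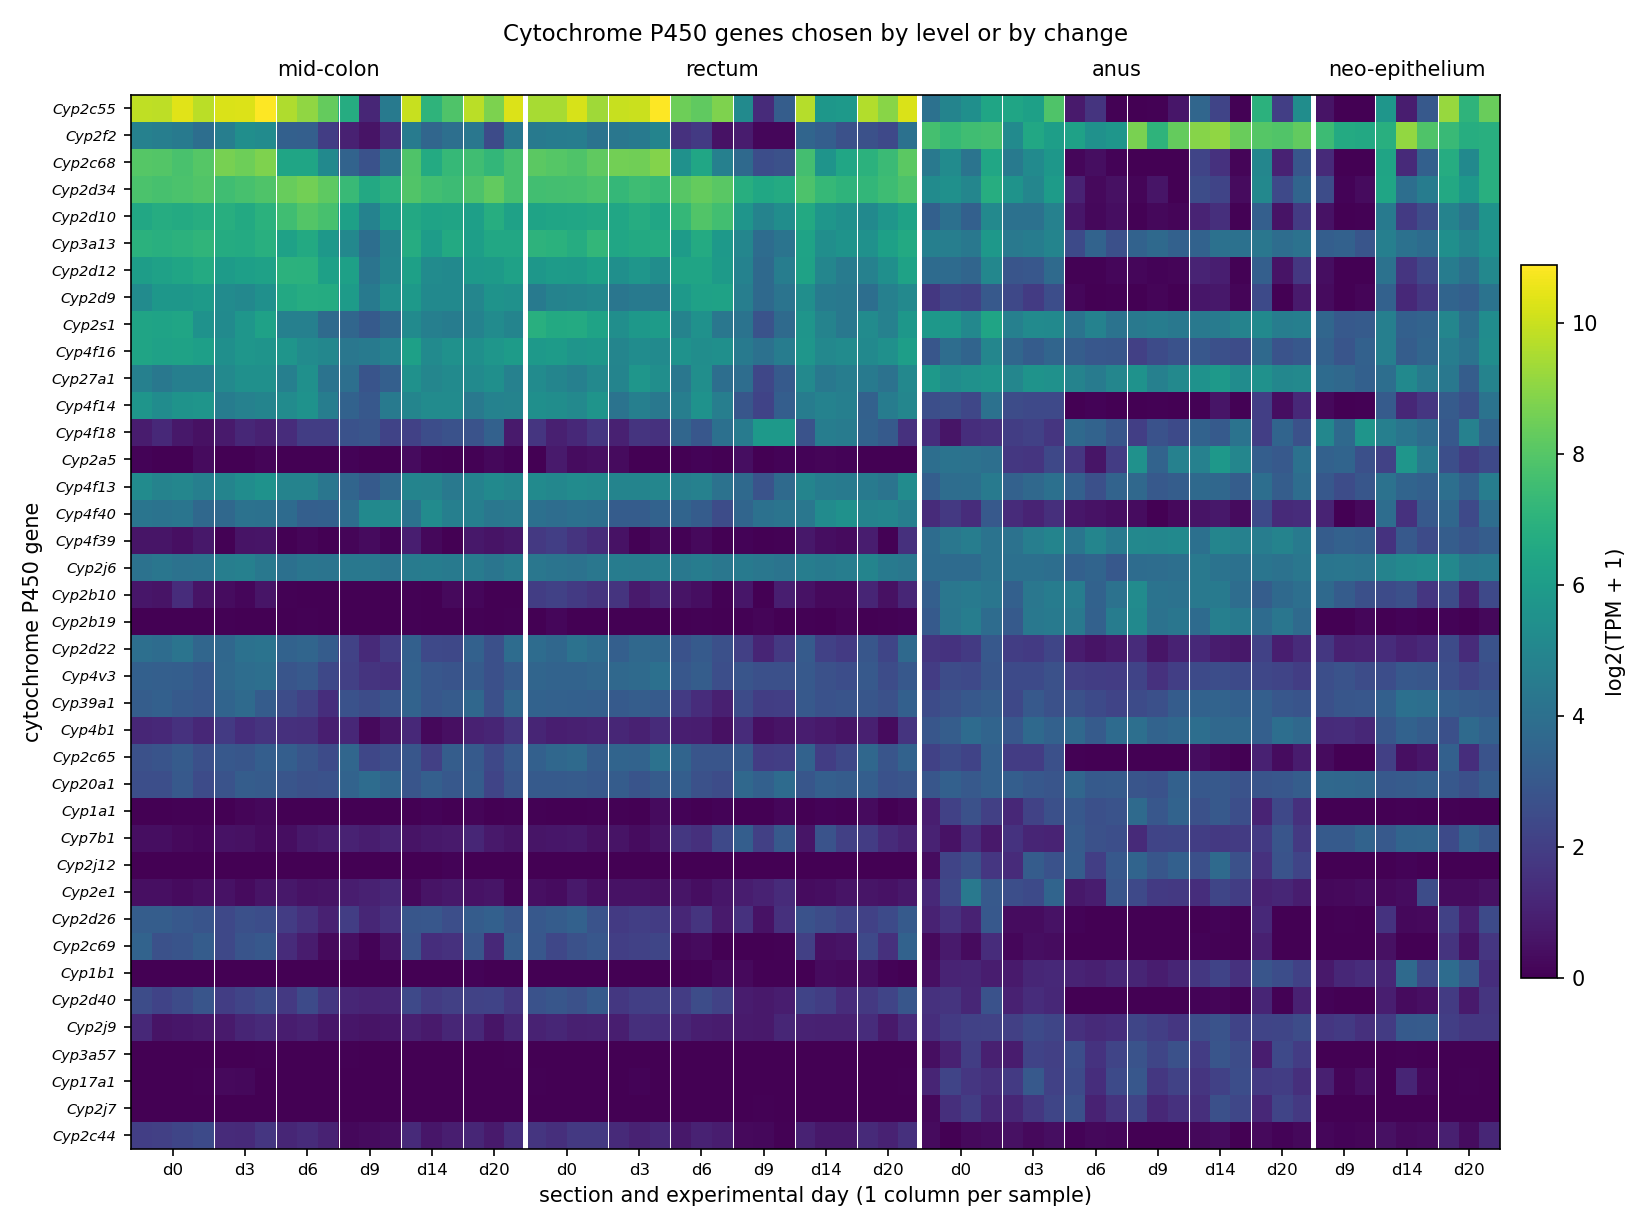
Level, as log2(TPM + 1), of the 39 cytochrome P450 genes chosen by level or by change (rows) in each of the 66 samples (columns, by section and experimental day), with yellow for high and dark blue for low values. Mid-colon and rectum share a block of genes, Cyp2c55 at its head, that darkens at day 9, and Cyp2b19, Cyp1a1 and Cyp2j12 are bright in anus only among the sections drawn.

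Promoters of 6 genes are printed because their genes carry the results that follow: Cyp2c55, Cyp2c68 and Cyp2c69 fell at days 6 and 9, Cyp2d9 and Cyp2d10 rose at day 6, and Cyp2d26, of the same cluster, fell at day 6. Each run is the 120 bases before the RefSeq start on GRCm38.p6, read 5′ to 3′ on the strand of the gene. Capitals mark TATAAA on either strand (it reads TTTATA on the opposite strand) or the Hnf4-type motif CAAAGTCCA. The windows are chr19:39006899-39007018 on the plus strand, chr19:39741102-39741221 and chr19:39886770-39886889 on the minus strand, chr15:82452257-82452376 on the plus strand, and chr15:82407195-82407314 and chr15:82794246-82794365 on the minus strand.
Cyp2c55: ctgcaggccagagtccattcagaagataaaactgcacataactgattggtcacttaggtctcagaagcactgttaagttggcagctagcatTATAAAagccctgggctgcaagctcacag
Cyp2c68: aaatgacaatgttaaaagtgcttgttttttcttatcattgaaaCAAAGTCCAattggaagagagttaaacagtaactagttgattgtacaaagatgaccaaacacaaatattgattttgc
Cyp2c69: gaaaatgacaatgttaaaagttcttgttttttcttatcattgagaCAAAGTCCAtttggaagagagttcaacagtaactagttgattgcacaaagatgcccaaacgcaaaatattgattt
Cyp2d9: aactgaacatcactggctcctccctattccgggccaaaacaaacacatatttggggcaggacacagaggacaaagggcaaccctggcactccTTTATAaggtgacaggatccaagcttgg
Cyp2d10: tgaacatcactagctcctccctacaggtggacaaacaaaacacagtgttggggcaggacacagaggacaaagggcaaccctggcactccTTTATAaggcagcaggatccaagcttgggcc
Cyp2d26: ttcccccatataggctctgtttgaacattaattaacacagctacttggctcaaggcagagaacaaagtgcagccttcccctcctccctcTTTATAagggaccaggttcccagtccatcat

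A promoter of 300 bases (250 before to 50 after the start) was held for 73 of the 93 genes. CAAAGTCCA, searched on both strands, was in 9 of the 73 (12.3%) and in 0.475% of 32817 promoters of all genes. Those 9 were Cyp2c40, Cyp2c65, Cyp2c67, Cyp2c68, Cyp2c69, Cyp2c70, Cyp3a11, Cyp3a16 and Cyp8b1, and near copies within the Cyp2c cluster share the surrounding sequence. TATAAA was in 31 of the 73 (42.5%) against 13.6% of all promoters. The AP-1 motif TGANTCA was in 6 (8.22%) against 7.81%, and the aryl hydrocarbon receptor core GCGTG in 15 (20.5%) against 32.4%. The Cyp2d9 and Cyp2d10 promoters were identical at 84.0% of their 300 positions, and each matched that of Cyp2d26 at 57.3%. The promoter of Cyp2d11, a gene whose highest group mean was 0.326 TPM, matched that of Cyp2d9 at 89.0% and that of Cyp2d10 at 80.7%. A match is a description of letters, not of a bound site.

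In mid-colon and rectum most of the tested P450 genes were below day 0 at day 9, and part of them already at day 6. At day 9, 19 of 28 tested members had fallen in mid-colon and 2 had risen, where 17.0% of all tested genes fell and 26.5% rose (43.4% in all). In rectum 25 of 33 had fallen and 3 had risen, where 20.0% of all tested genes fell and 33.5% rose (53.5% in all). The median difference of the tested members was −1.32 in mid-colon and −1.38 in rectum, beside 0.09 and 0.13 for all genes. Colonocyte markers summed to 3374 to 3897 TPM in mid-colon at day 9 against 8079 to 10160 at day 0, and to 3200 to 3816 against 7369 to 9347 TPM in rectum. The part of the colonocyte loss in the P450 result was not tested.

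Cyp2c55 (chr19:39007019-39042693), an epoxygenase and hydroxylase of arachidonic and linoleic acid, was the most abundant member and the one that fell furthest. Its level in uninjured mid-colon was 906, 898, 1363 and 865 TPM. It was 767, 536 and 316 TPM at day 6, and 105, 1.28 and 21.3 TPM at day 9. Every day 9 sample lay below every day 0 sample, with mouse 12 the lowest. The difference at day 9 was −5.82 ± 0.96 (adjusted p = 0.000878). In rectum the day 0 samples held 706, 709, 1186 and 649.5 TPM, and the day 9 samples held 36.1, 1.53 and 8.18 TPM, a difference of −6.37 ± 0.74 (adjusted p = 0.000148). The order of the mice was the same in both sections, with mouse 11 highest and mouse 12 lowest at day 9. At day 6 the fall had passed the test in rectum (−1.14 ± 0.22, adjusted p = 0.0041) and in mid-colon (−0.96 ± 0.28, adjusted p = 0.0449). The mid-colon call at day 6 was lost without mouse 1, 2, 3, 9 or 10, in 5 of the 7 fits that left out a mouse, and under TMM scaling.

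Other Cyp2c genes followed. Cyp2c68 (chr19:39688834-39741054), held 282, 255, 235 and 299.5 TPM in rectum at day 0, then 44.2, 85.1 and 26.01 TPM at day 6 and 12.1, 4.98 and 5.44 TPM at day 9. The groups did not overlap at either day, and the differences were −2.50 ± 0.32 and −5.07 ± 0.26 (adjusted p = 0.000894 and 2.26e-06). In mid-colon the differences of Cyp2c68 were −1.96 at day 6 and −4.52 at day 9. Cyp2c69 went from 5.74 ± 1.27 TPM to 0.0156 ± 0.027 TPM in rectum at day 9, and Cyp2c44, which makes epoxides of arachidonic acid, from 2.23 ± 0.353 to 0.137 ± 0.0892 TPM. The sum over the Cyp2c subfamily went from 1273 ± 215 TPM to 60.45 ± 59.8 TPM in mid-colon at day 9, while rectum went from 1101 ± 229 TPM to 27.79 ± 25.3 TPM. Only 38.0% of the 31-base stretches of Cyp2c68, and 34.1% of those of Cyp2c69, occur in no other gene, most of the rest lying in Cyp2c40, so reads may be split wrongly among them. Cyp2c55 does not share that limit, with 96.6% of its stretches its own.

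**Figure D2:**
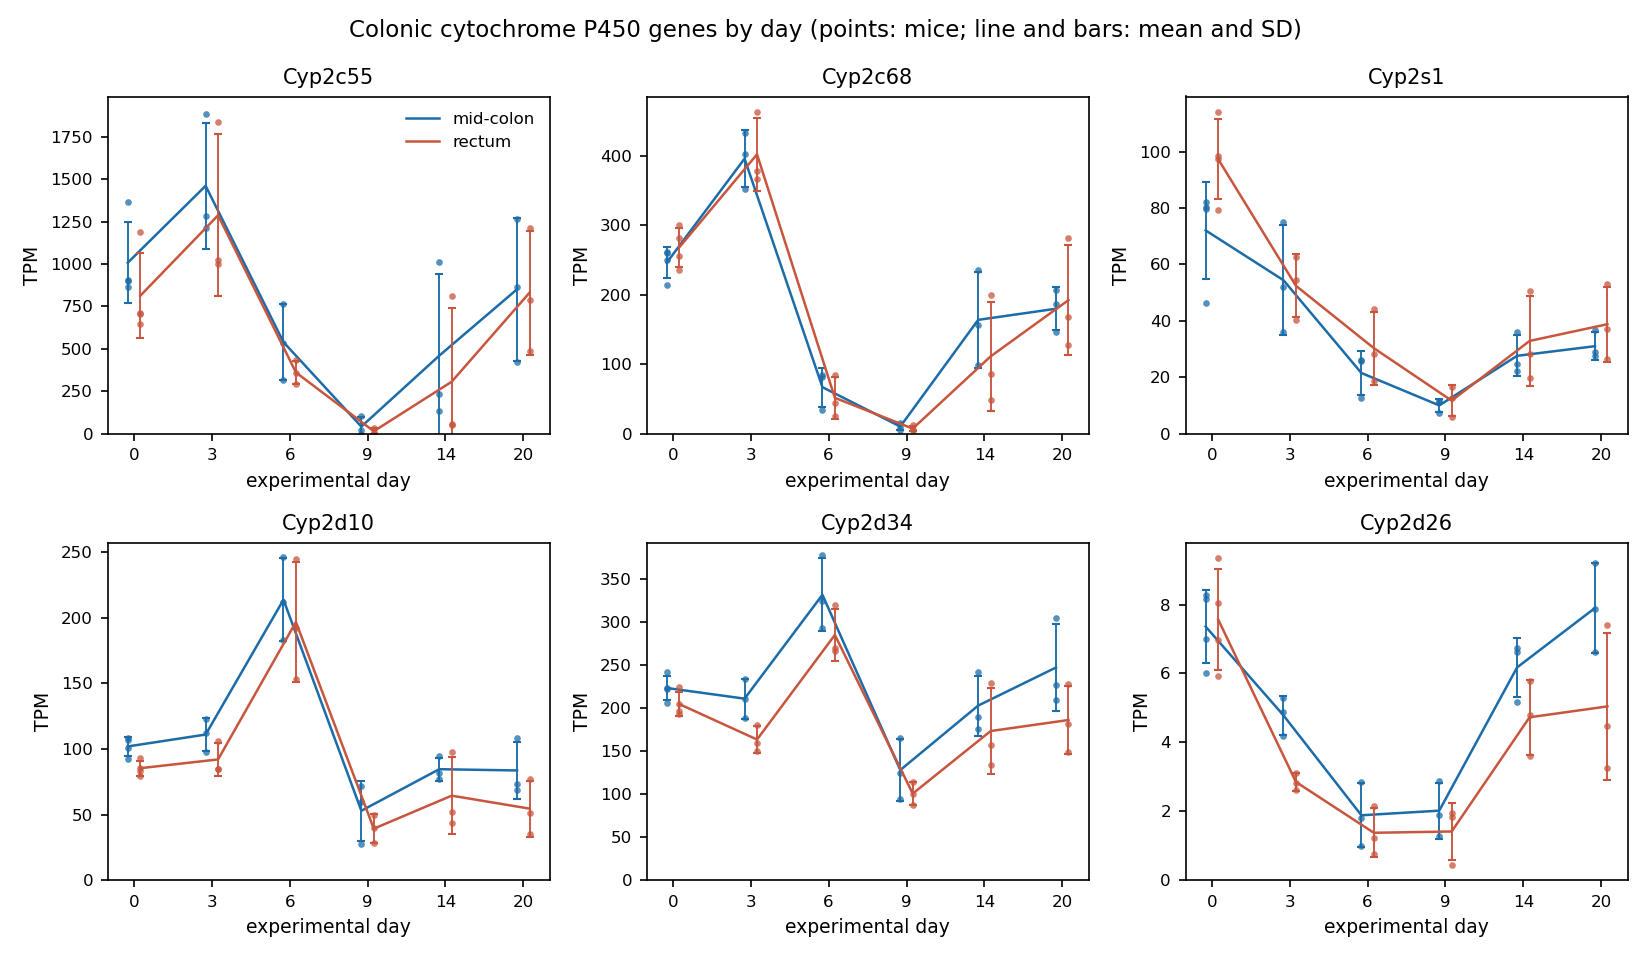
TPM of Cyp2c55, Cyp2c68, Cyp2s1, Cyp2d10, Cyp2d34 and Cyp2d26 by experimental day in mid-colon (blue) and rectum (red), with points for mice, lines for means and bars for SD. Cyp2c55, Cyp2c68 and Cyp2s1 lie below every day 0 sample at day 9, Cyp2d10 and Cyp2d34 stand above theirs at day 6, and Cyp2d26 stands below.

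Genes of other subfamilies fell as well. Cyp3a13, a broad drug-metabolising enzyme with 99.7% of its 31-base stretches its own, held 124, 115, 126 and 136.5 TPM in mid-colon at day 0 and 32.7, 14.1 and 28.3 TPM at day 9 (−2.36 ± 0.25, adjusted p = 6.71e-05). All 3 day 9 values lay below all 4 day 0 values. Cyp2s1, an epithelial enzyme that responds to the aryl hydrocarbon receptor, held 114, 97.5, 98.6 and 79.3 TPM in rectum at day 0 and 16.8, 5.80 and 12.7 TPM at day 9 (−3.04 ± 0.30, adjusted p = 5.67e-05). Cyp2f2, best known from airway club cells, was among the sharpest losses in the colon, from 21.25 ± 3.00 TPM to 0.367 ± 0.375 TPM in rectum (−4.05 ± 0.20). Of the fatty acid hydroxylases, Cyp4f14, which inactivates leukotriene B4, fell from 40.72 to 6.21 TPM in rectum, Cyp4f16 from 55.72 to 19.96 TPM and Cyp4f13 from 34.68 to 10.14 TPM. Cyp2j6, which acts on arachidonic acid, stood at 17.60 ± 1.32 TPM in rectum at day 0 and at 19.32 ± 2.26 TPM at day 9, so its ranges overlapped.

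The sterol enzymes did not move together. Cyp27a1, the mitochondrial sterol hydroxylase, held 37.1, 29.9, 26.01 and 34.1 TPM in rectum at day 0 and 13.7, 3.97 and 7.54 TPM at day 9 (−1.93 ± 0.32, adjusted p = 0.00108). Cyp39a1, an oxysterol hydroxylase, reached its lowest level earlier, with 9.72, 9.30, 9.04 and 8.80 TPM at day 0, 2.62, 1.63 and 0.934 TPM at day 6, and 4.65, 2.90 and 3.04 TPM at day 9. Its difference was −1.95 ± 0.20 at day 6 and −1.19 ± 0.16 at day 9, and neither set of samples overlapped day 0. Cyp7b1, the other oxysterol hydroxylase of the set, rose.

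Day 6, the last day of DSS, had a different pattern. In mid-colon 4 of 28 tested members had risen and 11 had fallen, where 4.93% of all tested genes rose and 9.99% fell (14.9% in all). In rectum 5 of 32 had risen and 19 had fallen, where 11.5% of all tested genes rose and 37.2% fell (48.7% in all), with medians of −0.62 over the tested members and −0.27 over all genes. The members that rose in both sections were Cyp4f18 and 3 genes of the Cyp2d cluster on chromosome 15, Cyp2d9, Cyp2d10 and Cyp2d34. The mid-colon call for Cyp4f18 held in 3 of the 7 fits that left out a mouse and was lost without mouse 1, 3, 9 or 10. Cyp2d enzymes oxidise amine-containing drugs and plant alkaloids. Colonocyte markers stood at 8258 to 10240 TPM in mid-colon and 9785 to 10560 TPM in rectum at day 6, against 8079 to 10160 and 7369 to 9347 TPM at day 0. Without mouse 1 the mid-colon count of called members at day 6 was 8 in place of 15.

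Cyp2d10 (chr15:82402846-82407195) held 92.2, 107, 100.5 and 108 TPM in mid-colon at day 0 and 183, 246 and 212 TPM at day 6. In rectum it held 79.6, 83.3, 85.4 and 93.1 TPM at day 0 and 153, 245 and 193 TPM at day 6. The groups were apart in both sections, by 1.05 ± 0.14 (adjusted p = 0.00185) and 1.17 ± 0.15 (adjusted p = 0.000848). Cyp2d9 (chr15:82433437-82456845) went from 50.82 to 100.6 TPM in mid-colon (0.99, adjusted p = 0.00758), and its rectal mean went from 28.04 to 69.65 TPM (1.29 ± 0.15, adjusted p = 0.000638). Cyp2d34 (chr15:82615965-82620946) went from 223.2 ± 14.4 to 331.5 ± 42.6 TPM in mid-colon (0.56, adjusted p = 0.018), and its rectal mean went from 204.6 ± 13.8 to 284.9 ± 30.2 TPM (0.47, adjusted p = 0.00592). The calls for Cyp2d9 and Cyp2d10 held in each fit that left out a mouse, and the mid-colon call for Cyp2d34 was lost without mouse 1, 2 or 9. By day 9 Cyp2d10 was back below its starting level, at 71.7, 27.6 and 59.3 TPM in mid-colon and 49.9, 28.2 and 39.6 TPM in rectum.

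The rise did not extend to every tested gene of the cluster. Cyp2d26 (chr15:82790101-82794294) fell in the same samples, from 8.29, 8.16, 6.99 and 6.02 TPM to 2.84, 1.81 and 0.994 TPM in mid-colon (−1.58 ± 0.24, adjusted p = 0.00386). In rectum it went from 6.99, 8.04, 9.35 and 5.92 TPM to 1.22, 2.15 and 0.749 TPM (−1.88 ± 0.22, adjusted p = 0.000572). Cyp2d22 and Cyp2d40 fell in rectum, by 1.02 and 0.65 on the log2 scale, the Cyp2d40 call being lost under TMM scaling, and Cyp2d12 held 61.64 ± 7.66 TPM at day 0 and 73.53 ± 11.3 TPM at day 6 with a call only under TMM scaling. Summed over the subfamily, Cyp2d stood at 767.7 ± 93.1 TPM in mid-colon against 483.0 ± 37.9 TPM at day 0 (0.66, adjusted p = 0.00922), and at 636.3 ± 86.4 against 407.1 ± 31.3 TPM in rectum (0.64, adjusted p = 0.0028). The sum does not depend on how reads are shared among its own members, which matters because 45.6% of the 31-base stretches of Cyp2d10 and 53.6% of those of Cyp2d9 are their own. It can still depend on near copies outside the set, since Cyp2d40 shares 28.6% of its stretches with Cyp2d41-ps. When samples were rescaled by TMM factors (trimmed means of M-values, which set the bulk of genes level between samples), the median difference of all genes moved from −0.24 to −0.02 in mid-colon and from −0.27 to −0.04 in rectum. Against that shift 4 members were called higher and 9 lower in mid-colon, where 16.1% of all genes were called, and 7 higher and 13 lower in rectum, where 36.2% were called.

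Cyp4f18 and Cyp7b1 rose as the colonic genes fell. Cyp4f18 (chr8:71988482-72009626), which oxidises leukotriene B4 in neutrophils, held 2.17, 0.947, 1.37 and 2.26 TPM in rectum at day 0. It held 11.1, 6.83 and 15.2 TPM at day 6 and 22.1, 56.1 and 58.9 TPM at day 9, a difference of 4.03 ± 0.35 at day 9 (adjusted p = 3e-05). Every sample of both days lay above day 0. In mid-colon its day 9 samples held 5.68, 6.39 and 3.53 TPM against 0.403 to 1.36 TPM at day 0 (1.79 ± 0.24, adjusted p = 0.000268). The day 9 response was larger in rectum than in mid-colon by 2.24 ± 0.45 (interaction in limma, adjusted p = 0.0075). Neutrophil markers (5 genes) summed to 10400 to 12330 TPM in rectum and 446.9 to 2104 TPM in mid-colon at day 9, against 0.859 to 5.38 and 0.125 to 2.58 TPM at day 0. Their part in the Cyp4f18 result was not tested.

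Cyp7b1 (chr3:18071950-18243338), which hydroxylates oxysterols and neurosteroids, held 0.524, 0.594, 0.630 and 0.423 TPM in rectum at day 0, 2.42, 1.82 and 4.32 TPM at day 6 and 8.65, 3.23 and 7.24 TPM at day 9. All later samples lay above day 0, and the difference was 1.27 ± 0.21 at day 6 and 2.17 ± 0.27 at day 9 (adjusted p = 0.00254 and 0.000209). Cyp7b1 entered both tests only through the later day, so it could only be called higher, without overlap. In mid-colon Cyp7b1 reached 0.996 ± 0.145 TPM at day 9, and it did not pass the filter for a test against day 0 there. The rectal response was larger by 1.50 ± 0.31 (adjusted p = 0.00963). Rectum at day 9 carried Cyp7b1 into that interaction fit, since every rectal sample of day 0 was below 1 TPM. Its 31-base stretches occur in no other gene. The same test called Cyp4f39, a skin lipid hydroxylase, as the third member (−1.24 ± 0.23, adjusted p = 0.00433), since it fell from 2.31 ± 0.631 to 0.0435 ± 0.043 TPM in rectum but began at 0.520 ± 0.106 TPM in mid-colon. From that start it could not fall as far in mid-colon on this scale. For Cyp4f39 the test therefore cannot decide whether the sections responded differently. The interaction called 3 of 34 tested members, where 5.84% of all tested genes had the larger response in rectum and 0.703% the smaller (6.55% in all), and at day 6 it called 0 of 33 members and 0.00% of all genes by limma, with 7 members at an unadjusted p under 0.05. Both sections come from the same mice, and with the mouse fitted as a block the day 6 interaction called 1 member and 0.585% of all genes. With a pseudocount of 0.1, 1 member remained called at day 9. Without mouse 13 the Cyp4f18 and Cyp7b1 interaction calls were lost and 1 member remained called, and without mouse 11 the count was 7.

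Cyp20a1, an orphan P450 with no known substrate, was the other riser at day 9. It held 5.19, 5.08, 7.16 and 4.58 TPM in mid-colon at day 0 and 10.1, 13.2 and 10.3 TPM at day 9 (0.92 ± 0.20, adjusted p = 0.00432). In rectum it held 7.38 ± 0.252 TPM and 11.39 ± 1.99 TPM (0.55 ± 0.14, adjusted p = 0.0108). Neither pair of groups overlapped. In neo-epithelium Cyp20a1 fell from 11.29 ± 0.638 TPM at day 9 to 6.71 ± 1.38 TPM at day 20 (−0.69 ± 0.18, adjusted p = 0.0348), a call lost without mouse 11, 12, 13 or 17.

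**Figure D3:**
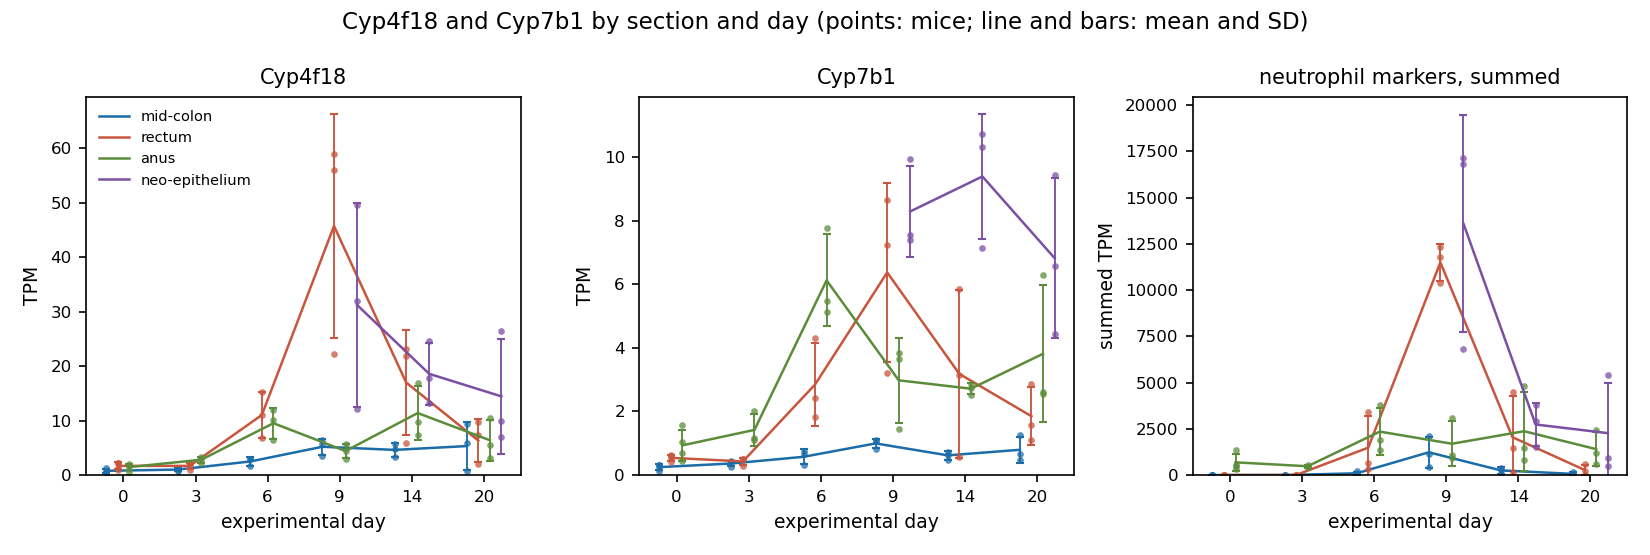
TPM of Cyp4f18, Cyp7b1 and the summed neutrophil markers by experimental day in mid-colon, rectum, anus and neo-epithelium, with points for mice, lines for means and bars for SD. In rectum Cyp4f18 and Cyp7b1 are highest at day 9, where every sample stands above day 0, and Cyp7b1 in neo-epithelium lies between 4.44 and 10.7 TPM.

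At day 3 members had changed in rectum, while none passed the main test in mid-colon. By then limma called 0 of 29 tested members in mid-colon, with 10 at an unadjusted p under 0.05, where 0.0666% of all tested genes rose and 0.308% fell (0.375% in all). With TMM factors, which moved the median of all genes from 0.14 to 0.00, Cyp2d26, Cyp4f14 and Cyp4f16 were called lower. In rectum 20 of 32 tested members were at an unadjusted p under 0.05 in limma, where 2515 of 12348 genes were. After adjustment 7 of the 32 had fallen and 1 had risen, where 5.13% of all tested genes fell and 1.50% rose (6.62% in all). The riser was Cyp2c68, at 378, 366 and 462 TPM against 282, 255, 235 and 299.5 TPM at day 0 (0.58 ± 0.11, adjusted p = 0.017), and its call was lost without mouse 2 or 5. Those that fell were Cyp2d26, Cyp2d40, Cyp2s1, Cyp4f14, Cyp4f16, Cyp4f39 and Cyp4f40, for example Cyp4f14 from 40.72 to 20.47 TPM. Cyp2c55 stood at 1001, 1023 and 1837 TPM in rectum at day 3, with mouse 7 apart from the others and no call (0.65 ± 0.26, adjusted p = 0.2).

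By days 14 and 20 fewer members were called against day 0. At day 14, 1 of 28 members was higher and 3 were lower than day 0 in mid-colon, where 2.55% of all tested genes were higher and 1.81% lower (4.36% in all). In rectum 2 of 31 were higher and 14 lower, where 6.31% of all genes were higher and 9.51% lower (15.8% in all). At day 20 the counts were 0 higher and 2 lower of 29 in mid-colon, beside 0.677% and 0.883% of all genes (1.56% in all). They were 1 higher and 4 lower of 33 in rectum, beside 2.79% and 4.88% (7.68% in all). Tested members had medians of −0.3 in mid-colon and −0.47 in rectum at day 20, beside −0.05 and −0.03 for all genes. Colonocyte markers summed to 4401 to 5906 TPM in mid-colon and 5902 to 7576 TPM in rectum at day 20. At day 0 they summed to 8079 to 10160 and 7369 to 9347 TPM, and their part was not tested. A member without a call is not shown to have returned. Cyp2c55 was 1012, 135 and 234 TPM in mid-colon at day 14 and 809.5, 53.7 and 57.6 TPM in rectum, so mouse 14 stood in the day 0 range while mice 15 and 16 stood below it. Neutrophil markers in rectum were lowest in the same mouse, at 175.7 TPM against 1458 and 4504 TPM in the other pair. Without mouse 14 the rectal count at day 14 was 27, without mouse 16 it was 3, and without mouse 1 it was 4. In mid-colon the day 14 count was 11 without mouse 14 and 0 without mouse 16. Whether the share of all genes called moved with the same mice is not shown. By day 20 Cyp2c55 held 862, 426 and 1267 TPM in mid-colon and 789, 490 and 1215 TPM in rectum, overlapping day 0 in both.

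A few members were still called at day 20. Cyp2s1 held 27.6, 36.7 and 28.8 TPM in mid-colon and 37.2, 26.4 and 52.9 TPM in rectum at day 20, below every day 0 sample of its section (−1.16 ± 0.23, adjusted p = 0.0398, and −1.35 ± 0.23, adjusted p = 0.0212). Cyp2c44 in mid-colon (−1.08 ± 0.23) and Cyp2b10, Cyp2u1 and Cyp4v3 in rectum (−0.98, −0.65 and −0.66) were also called lower, the Cyp2u1 call being lost under TMM scaling. Cyp4f40 had overshot: in rectum it held 15.3, 13.7, 15.3 and 14.1 TPM at day 0, 19.1, 36.8 and 43.8 TPM at day 14 and 28.0, 30.1 and 24.0 TPM at day 20. The groups did not overlap on either day, with differences of 1.05 ± 0.25 and 0.86 ± 0.12 (adjusted p = 0.0322 and 0.0152). These day 20 calls rested on few mice: in mid-colon 0 members were called without mouse 1, 2, 3, 17 or 18 and 3 without mouse 4 or 19, in rectum 0 without mouse 1, 2 or 3, and 21 were called in rectum without mouse 19. The share of all genes called in those fits is not given. The Cyp4f40 call at day 20 was lost without mouse 1, 2 or 3, and that at day 14 held only without mouse 14.

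Mid-colon and rectum of uninjured mice held nearly the same repertoire, and anus held another. Between rectum and mid-colon at day 0, 3 of 31 tested members differed, where 1.52% of all genes were higher in rectum and 0.274% lower (1.79% in all): Cyp2b10 and Cyp4f39 were higher in rectum and Cyp2d9 was lower, at 21.7, 27.8, 30.0 and 32.7 TPM against 36.8, 52.7, 53.5 and 60.3 TPM. TMM scaling moved the median of all genes from 0.21 to −0.01 and the Cyp2d9 call was lost. Each fit without 1 mouse left 0 or 1 of these calls, the 1 being Cyp4f39 without mouse 4. Between anus and rectum, 11 of 37 tested members were higher in anus and 21 were lower, where 25.9% of all tested genes were higher and 34.4% lower (60.3% in all). All 6 tested Cyp2c members and all 7 tested Cyp2d members were lower in anus.

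The anal genes came from several families. Cyp2f2 (chr7:27119909-27133660) held 200.1, 154, 185 and 198 TPM in anus and 21.7, 22.9, 23.6 and 16.9 TPM in rectum (3.06 ± 0.14, adjusted p = 1.62e-07). Cyp2b19, a keratinocyte epoxygenase of arachidonic acid, held 7.38, 18.3, 23.7 and 13.4 TPM in anus and at most 0.130 TPM in rectum (3.90 ± 0.29, adjusted p = 3.34e-06). Each anal sample stood above each rectal sample for both genes. Cyp4f39, a maker of very long hydroxylated fatty acids for the skin barrier, was at 18.07 ± 4.17 TPM against 2.31 ± 0.631 TPM, and Cyp2a5, a coumarin hydroxylase, at 15.39 against 0.349 TPM. The retinoic acid hydroxylase Cyp26b1 (2.48 against 0.0990 TPM) and the steroid enzyme Cyp17a1 (2.25 against 0.00807 TPM) were also higher in anus. Cyp2b19, Cyp26b1 and Cyp17a1 entered this test only through anus, so they could only be called higher there, without overlap. On the other side, Cyp2c55 held 15.8, 28.7, 41.6 and 84.3 TPM in anus, with mouse 4 highest, as were its colonocyte markers. Without mouse 4 the count of members called was 33, and without mouse 2 it was 27. Cyp2a5 shares 44.9% of its 31-base stretches with Cyp2a4, so the pair cannot be fully told apart.

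The colonic P450 genes found in anus fell to near 0 by day 6. At day 6, 16 of 41 tested members had fallen in anus and 2 had risen, where 6.37% of all tested genes fell and 8.64% rose (15.0% in all). At day 9 the counts were 11 lower and 2 higher of 42, where 3.63% of all genes fell and 1.46% rose (5.09% in all), and 8 members were called without mouse 2, 11 or 13. Cyp2d34 was 37.6, 43.4, 30.9 and 109 TPM at day 0, 1.07, 0.207 and 0.389 TPM at day 6, and 0.0941, 0.540 and 0 TPM at day 9. Cyp2c55 was 0.736, 2.09 and 0.0539 TPM at day 6, a difference of −4.37 ± 0.55 with mouse 4 and −3.96 without it (−5.03 and −4.65 for Cyp2d34). Cyp2c68 was listed at 0 in all 3 anal samples of day 9. Colonocyte markers in anus summed to 17.57 to 58.09 TPM at day 6 and 17.26 to 38.96 TPM at day 9, against 521.5 to 1877 TPM at day 0, and their part in this loss was not tested. By day 20 these genes were scattered, with Cyp2c55 at 125, 3.11 and 38.9 TPM, and 1 member was higher and 1 lower of 41, where 1.09% of all genes were higher and 0.371% lower (1.46% in all).

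Among genes of the anal repertoire, Cyp2f2 and Cyp2a5 fell at day 6 and were above day 0 at day 14. Cyp2f2 in anus went from 154 to 200.1 TPM at day 0 to 36.1, 90.6 and 68.4 TPM at day 3, which lay below every day 0 sample without passing the test (−1.58 ± 0.29, adjusted p = 0.206). It was 73.3, 43.9 and 51.4 TPM at day 6 (−1.72 ± 0.20, adjusted p = 0.00112), 417, 135 and 319 TPM at day 9, and 477, 546 and 333.5 TPM at day 14 (1.27 ± 0.19, adjusted p = 0.0131). Both the dip at day 6 and the excess at day 14 were called in each fit that left out a mouse. Cyp2a5 held 14.4 to 16.5 TPM at day 0, 2.26, 0.539 and 2.87 TPM at day 6 (−2.61 ± 0.31, adjusted p = 0.00128), and 26.7, 55.0 and 30.8 TPM at day 14 (1.16 ± 0.24, adjusted p = 0.0366). Its day 14 call held only without mouse 14 and was lost under TMM factors. At day 3 Cyp2a5 was the 1 member of 41 called in anus, where 0.0220% of all genes rose and 0.0220% fell (0.0440% in all), at 2.43, 2.17 and 4.16 TPM, and of the 7 fits without a mouse only that without mouse 1 kept it.

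Cyp2b19 stayed between 14.59 and 23.19 TPM in the group means of anus, and none of its days was called. Cyp4f39 was higher at day 9 (33.1, 31.5 and 34.8 TPM against 13.4, 19.1, 23.2 and 16.5 TPM, 0.87 ± 0.20, adjusted p = 0.0458), and so was Cyp3a57, a drug-metabolising relative of Cyp3a13 (5.01 against 1.30 TPM, adjusted p = 0.0486). The Cyp4f39 call was lost without mouse 2, 4, 11, 12 or 13, and the Cyp3a57 call held in 1 of 7 fits that left out a mouse. Cyp4f18 and Cyp7b1 rose in anus too. Cyp7b1 held 1.03, 0.440, 1.58 and 0.689 TPM at day 0 and 7.78, 5.48 and 5.12 TPM at day 6 (1.90 ± 0.26, adjusted p = 0.0025), and Cyp4f18 went from 1.47 ± 0.626 to 9.52 ± 2.82 TPM (2.09 ± 0.30, adjusted p = 0.00282). At day 14, 3 of 41 members were higher and 8 lower, where 2.26% of all genes were higher and 2.01% lower (4.27% in all), Cyp4f18 at 11.39 ± 4.95 TPM being the third that was higher, and without mouse 2, 15 or 16 the count of members called was 6, 7 or 5. Cyp1b1, an aryl hydrocarbon receptor target that acts on oestrogens and retinoids, was the riser of day 20, at 6.21, 4.95 and 3.29 TPM against 0.367, 1.14, 1.21 and 0.850 TPM (1.61 ± 0.27, adjusted p = 0.0359). That call held only without mouse 1 among the fits that left out a mouse.

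**Figure D4:**
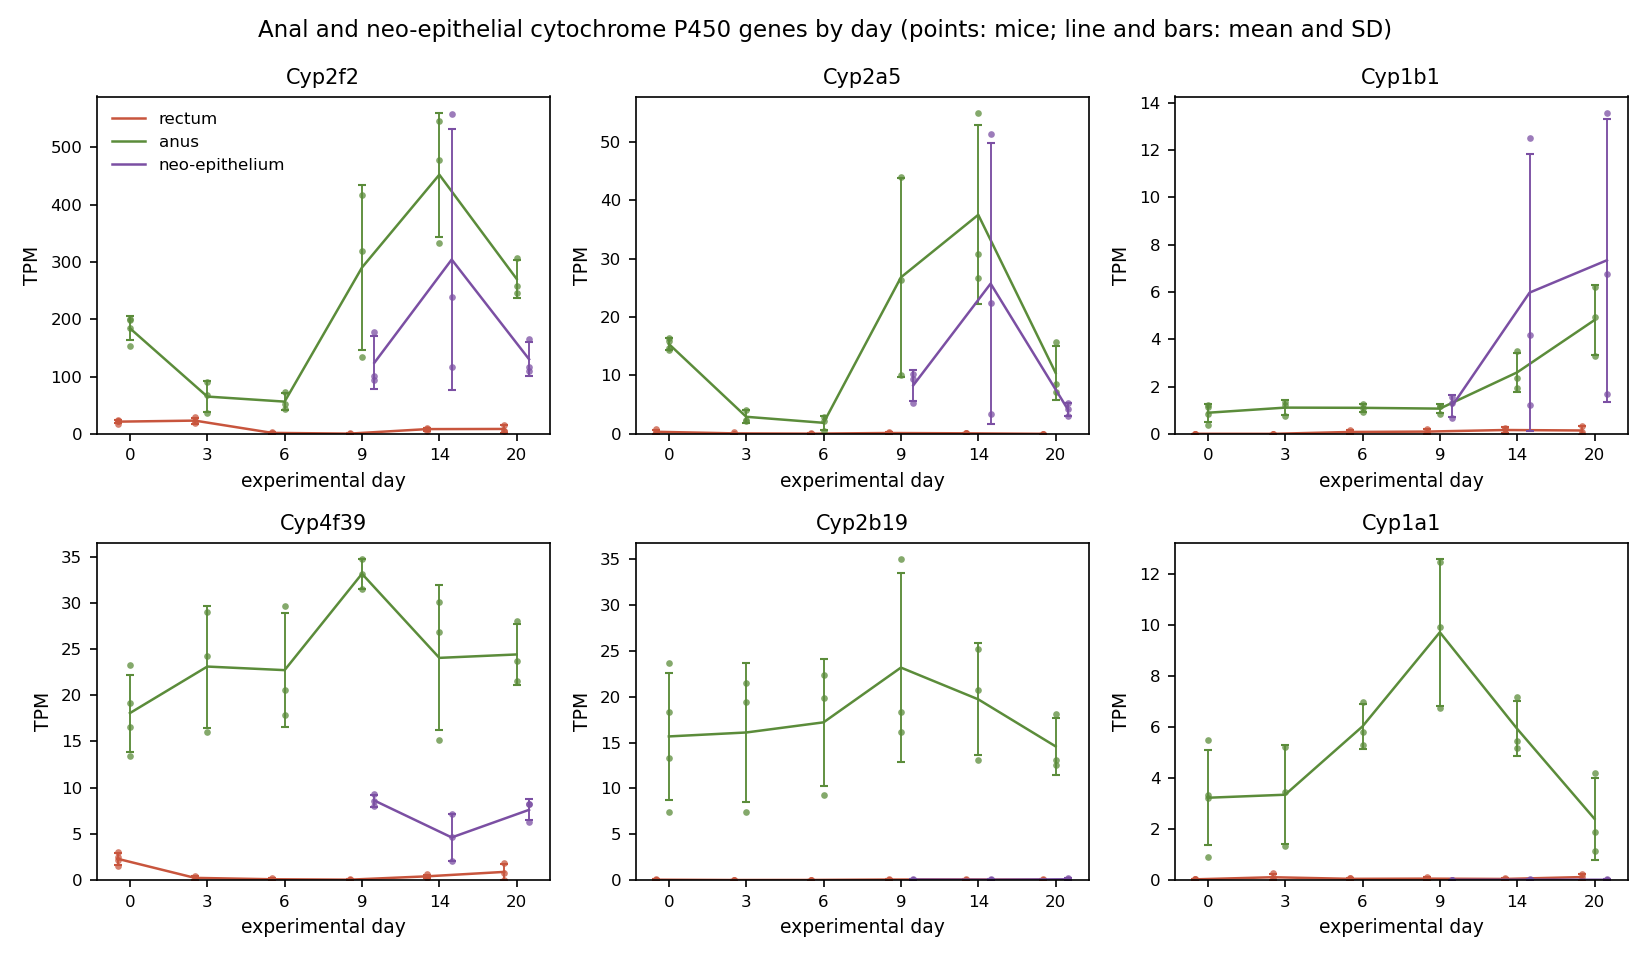
TPM of Cyp2f2, Cyp2a5, Cyp1b1, Cyp4f39, Cyp2b19 and Cyp1a1 by experimental day in rectum (red), anus (green) and squamous neo-epithelium (purple), with points for mice, lines for means and bars for SD. Cyp2f2 in anus falls at day 6 and stands above day 0 at day 14, and Cyp2b19 and Cyp1a1 are near 0 in neo-epithelium at each day.

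Squamous neo-epithelium carried part of the anal repertoire and lacked part of it. Compared with rectum of days 9, 14 and 20 with day as a term, 9 of 35 tested members were higher and 16 were lower, where 20.7% of all genes were higher and 21.3% lower (42.0% in all). Compared with anus of the same days, 14 of 43 were higher and 18 lower, where 38.1% of all genes were higher and 20.4% lower (58.5% in all). Cyp2f2 led the tissue at day 9, at 177, 100.5 and 94.0 TPM, where rectum held 0.8004, 0.154 and 0.148 TPM. Over the 3 days it was higher than in rectum by 5.08 ± 0.37 (adjusted p = 1.68e-08) and lower than in anus by a difference of −1.01 ± 0.26 (adjusted p = 0.00351). Cyp2a5, Cyp4f39, Cyp2b10, Cyp4b1 and Cyp1b1 were likewise higher in neo-epithelium than in rectum, by 3.12, 2.46, 1.89, 1.75 and 1.92. Of these, Cyp1b1 did not pass the filter between anus and rectum at day 0. Its highest group mean was in neo-epithelium at day 20 (7.34 TPM).

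The keratinocyte gene Cyp2b19 was the sharpest contrast between the squamous tissues. Its 9 samples of neo-epithelium held 0 to 0.174 TPM and the 9 anal samples of the same days held 12.6 to 35.1 TPM (−4.18 ± 0.16, adjusted p = 1.02e-12). Cyp1a1, the classic inducible target of the aryl hydrocarbon receptor, held 0 to 0.0371 TPM in neo-epithelium and 1.12 to 12.5 TPM in anus (−2.59 ± 0.23, adjusted p = 6.88e-08). Cyp2j12 was lower as well (−2.82 ± 0.20), and Cyp2j7 was listed at 0 in neo-epithelium against 2.82 TPM in anus. None of these ranges overlapped. Cyp2b19, Cyp1a1 and Cyp2j7 entered this test only through anus, so they could only be called lower in neo-epithelium, without overlap. Cyp3a57 (−2.25), the steroid enzymes Cyp17a1 (−1.73) and Cyp11a1 (−0.97), Cyp4f39 (−1.87) and Cyp26b1 (−0.91) were also lower in neo-epithelium than in anus. The 6 sebaceous gland markers are not particular to that gland here. They summed to 872.0 to 984.9 TPM in uninjured mid-colon, 622.7 to 781.1 TPM in uninjured rectum and 517.9 to 1021 TPM in uninjured anus. At day 9 they summed to 249.0 to 297.0 TPM in neo-epithelium and 1273 to 1606 TPM in anus. At day 14 they summed to 241.8 to 340.8 against 1013 to 1382 TPM, and at day 20 the ranges met, at 268.0 to 495.6 against 492.9 to 951.6 TPM. Skeletal muscle markers summed to 0.499 to 8.96 TPM in neo-epithelium and 1249 to 5080 TPM in anus over the 3 days. The part of either marker set in these differences was not tested.

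In the other direction, neo-epithelium held more of Cyp7b1 than either neighbour. Its samples held 7.38, 7.56 and 9.94 TPM at day 9, 7.15, 10.3 and 10.7 TPM at day 14 and 4.44, 9.45 and 6.58 TPM at day 20, with differences of 1.13 ± 0.27 from rectum and 1.16 ± 0.19 from anus (adjusted p = 0.0029 and 7.01e-05). Its ranges overlapped with both, since rectum reached 8.65 TPM at day 9. Of the 14 members higher than in anus, 5 were among 7 tested Cyp2d genes and 2 among 3 tested Cyp2c genes. Of 7 tested Cyp4f genes, 4 were higher and 2 lower, where 38.1% of all genes were higher and 20.4% lower. Colonocyte markers at day 20 summed to 1629 to 3246 TPM in neo-epithelium and 208.8 to 728.6 TPM in anus, and their part was not tested. Cyp4f18 was higher than in anus (1.36 ± 0.34, adjusted p = 0.00269), where neutrophil markers summed to 6809 to 17170 TPM in neo-epithelium and 904.2 to 3088 TPM in anus at day 9. The marker sums overlapped on the other days, at 1499 to 3799 against 821.4 to 4816 TPM at day 14 and 479.4 to 5392 against 601.3 to 2414 TPM at day 20, and their part was not tested. At days 9, 14 and 20 alone, 16, 15 and 5 members were called against rectum, beside 25.9%, 15.4% and 5.62% of all genes tested in those fits. Against anus the single days called 20, 17 and 17 members, beside 43.2%, 32.2% and 17.6% of all genes. With mouse as a block, 27 and 35 members were called, beside 44.2% and 56.8% of all genes, and no call against rectum or anus changed direction.

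Colonic P450 genes were higher in neo-epithelium at day 20 than at day 9. Of 29 tested members 14 were higher and 1 was lower at day 20, where 10.1% of all genes were higher and 16.1% lower (26.2% in all). Members near 0 at day 9, such as Cyp2c55, entered this test only through day 20, so they could only be called higher. Cyp2c55 was 0.496, 0 and 0 TPM at day 9, 51.0, 0.838 and 7.33 TPM at day 14 and 580.2, 132 and 336 TPM at day 20 (8.02 ± 0.52 between day 9 and day 20, adjusted p = 0.00122). At day 14 mouse 14 was again the highest, as it was in mid-colon and rectum. Cyp2c68 (5.83), Cyp2d34 (5.41), Cyp2d10 (4.69), Cyp2d12 (4.39) and Cyp2d9 (3.50) rose with it, and Cyp3a13 went from 8.15 ± 1.63 to 39.21 ± 8.72 TPM. Colonocyte markers in the same tissue summed to 26.51 to 270.8 TPM at day 9, 456.5 to 2819 TPM at day 14 with mouse 14 highest, and 1629 to 3246 TPM at day 20, and their part in this rise was not tested. Cyp2f2 stood at 124.0 ± 46.4 TPM at day 9 and 130.2 ± 30.2 TPM at day 20 with overlapping ranges. The count of calls ran from 10, without mouse 12 or 13, to 20, without mouse 18.

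Genes that serve or regulate P450 enzymes were read from lists chosen with earlier results of these data known. Of 9 nuclear receptors, 7 fell in mid-colon at day 9 and 7 of 8 tested fell in rectum, with medians of −1.19 and −1.35 beside 0.09 and 0.13 for all genes. The counts of these lists at day 9 stand beside 17.0% of all genes lower and 26.5% higher in mid-colon, and 20.0% lower and 33.5% higher in rectum. Hnf4a, a master regulator of the colonic epithelium, went from 221.3 ± 22.6 to 91.51 ± 12.5 TPM in rectum (−1.27 ± 0.13, adjusted p = 7.4e-05), the pregnane X receptor Nr1i2 from 37.72 to 13.41 TPM (−1.43) and the vitamin D receptor Vdr from 326.1 to 26.16 TPM (−3.66). At day 6 the bile acid receptor Nr1h4 was the 1 of the 9 that rose in rectum, from 37.51 ± 2.77 to 66.71 ± 1.19 TPM, while 7 fell, beside 11.5% and 37.2% of all genes. Por, the shared reductase, fell from 82.55 ± 16.8 to 20.74 ± 4.14 TPM in mid-colon (−1.93 ± 0.21, adjusted p = 7.3e-05), and 2 of the 9 genes for electron donors and haem fell there and 1 rose (median 0.04). Of 11 retinoid genes, 6 rose and 1 fell among 9 tested in rectum at day 9, led by the retinoic acid synthase Aldh1a3 (115.6 ± 24.0 against 5.68 ± 1.27 TPM), with a median of 0.62. In neo-epithelium 8 of the 11 were higher than in rectum and 0 lower, beside 20.7% and 21.3% of all genes. Of the aryl hydrocarbon receptor genes, 1 rose and 2 fell among 5 tested in rectum at day 9. Of 6 eicosanoid genes 2 rose and 1 fell there, and of 3 tested steroid genes 1 rose and 1 fell.

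TMM scaling changed no direction among the members called, but it moved the balance of all genes. The median of all genes went from 0.09 to −0.09 in mid-colon and from 0.13 to −0.07 in rectum at day 9, and from 0.17 to 0.06 between neo-epithelium and anus. The share of all called genes that were higher went from 33.1% to 56.2% in mid-colon and from 23.7% to 51.4% in rectum at day 6, and from 61.0% to 44.8% and from 62.7% to 46.1% at day 9. It went from 58.4% to 46% at day 14 and from 43.4% to 30.5% at day 20 in mid-colon, from 22.6% to 36.7% in rectum at day 3, and from 52.9% to 39.5% and 74.6% to 63.2% in anus at days 14 and 20. Between rectum and mid-colon at day 0 it went from 84.7% to 40.4%, between neo-epithelium and anus from 65.1% to 53.3%, and in the day 9 interaction from 89.3% to 77.1%. The members called lower at day 9 numbered 22 in mid-colon and 24 in rectum under TMM factors, beside 19 and 25 without them, where 52.4% and 58.8% of all genes were called in either direction under TMM factors.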

How the data were processed

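Bulk RNA-seq of mucosa from 4 distal gut sections was analysed in 66 samples from 19 mice, grouped by section and experimental day from the labels, with the mouse as the replicate. Per the labels' protocols, stranded mRNA libraries were read from a single end, and per the submitters' processing notes CASAVA, kallisto and the mm10 build were used, with versions not given in the sources used here. The deposited values are a signal, TPM (transcript abundance scaled to a fixed total), that the authors made for each transcript. Of 126860 rows, 37344 held no values and 1318 were repeats that were dropped, since with them the columns summed to 1027330.2 to 1062208.5. The other 88198 transcripts were summed to 30452 genes. TPM holds no counts, so no count test was possible and depth is unknown.

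Differences were tested with limma 3.58.1 (R 4.3.3, trended empirical Bayes) on log2(TPM + 1) across all genes that passed the filter, with Benjamini-Hochberg adjustment and a threshold of 0.05, in 22 comparisons. Neo-epithelium was compared with rectum and anus with day as a covariate. The method was tested on simulated data. The members, the marker and pathway lists and the rule for genes singled out (a group mean of 10 TPM, or the 12 largest called changes among genes reaching 2 TPM, 39 genes) were chosen with earlier results of these data known. Samples of a mouse come from the same animal, and their deviations from group means correlated by 0.0516 to 0.258 on average, so fits with the mouse as a block were made. Alternatives were TMM factors, a pseudocount of 0.1, no filter, subfamily sums, single days, the block, and leaving out each mouse. Own stretches of a gene are the 31-base words of its GENCODE M21 transcripts found in no other gene. Promoters are from RefSeq (GRCm38.p6). No 2 samples held identical values.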

Additional observations from a re-analysis of the deposited data

Results flagged for a closer look

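In groups of 4 mice (day 0), 89 gene and section combinations were examined for a single mouse far from the rest, and 11 stood out, where chance flags about 1 in 20 groups. Of these, 7 came from the anal sample of mouse 4, which was the highest for Cyp2d34 at 108.8 TPM, Cyp3a13 at 54.5 TPM, Cyp2d12 at 31.6 TPM, Cyp2j6 at 16.7 TPM, Cyp4f14 at 15.8 TPM, Cyp2d22 at 7.08 TPM and Cyp2d26 at 7.00 TPM. The same sample held the most colonocyte marker RNA of the 4, at 1877 TPM. Mouse 3 was the highest for Cyp2c55 in both mid-colon (1363 TPM) and rectum (1186 TPM). Mouse 2 was the lowest for Cyp27a1 in mid-colon (19.5 TPM), and mouse 4 the lowest for Cyp2s1 there (46.2 TPM).

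The response at day 9 differed between rectum and mid-colon for 3 members in the interaction test. The log2 response was larger in rectum by 2.24 for Cyp4f18 and by 1.50 for Cyp7b1, and it was more negative in rectum for Cyp4f39 (−1.24). Cyp4f39 began below 1 TPM in mid-colon, where it could not fall as far on this scale. Cyp7b1 did not pass the filter for mid-colon at day 9 against day 0.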

How the results depend on the processing

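None of the 2872 values recomputed for the 265 called pairs of gene and comparison changed direction, 2486 kept their side of the threshold and 386 did not. Calls were lost in 12 of 265 under TMM factors, 7 with a pseudocount of 0.1, 43 with no filter, 1 of 89 with the mouse as a block, 8 of 40, 19 of 50 and 31 of 51 at days 9, 14 and 20 alone, and 265 of 1847 without 1 mouse. The cause was not tested.

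Counts of called members moved as follows. The share of all genes is given here for TMM factors and the block, and for single days in the Results. For the other settings it is not given, so those counts do not compare members with all genes. TMM factors called 3 in mid-colon at day 3, beside 1.15% of all genes. With no filter, 1 and 0 were called in mid-colon at days 14 and 20, 2 in rectum at day 20, 0, 6 and 0 in anus at days 3, 14 and 20, and 1 between rectum and mid-colon at day 0. A pseudocount of 0.1 left 1 each in mid-colon and anus at day 20 and in the day 9 interaction. Subfamily sums gave 1 in mid-colon at days 14 and 20, 5 and 6 in rectum at days 3 and 14, 1 in anus at day 20, 1 between rectum and mid-colon, 21 between neo-epithelium and anus and 1 in the day 9 interaction. Single days 9, 14 and 20 gave 16, 15 and 5 against rectum and 20, 17 and 17 against anus. With the mouse as a replicate block, the pairing gave 31 calls between anus and rectum and 4 between rectum and mid-colon at day 0, 27 and 35 for neo-epithelium against rectum and anus, and 1 and 4 in the interactions at days 6 and 9. In the same order, the block called 55.7%, 2.9%, 44.2%, 56.8%, 0.585% and 7.87% of all genes. The block ended the call for Cyp39a1 between anus and rectum (adjusted p = 0.0742 in limma).

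Leaving out 1 mouse gave 0 to 0, 8 to 17, 19 to 25, 0 to 11 and 0 to 3 calls in mid-colon at days 3, 6, 9, 14 and 20. It gave 8 to 9, 23 to 26, 26 to 30, 3 to 27 and 0 to 21 in rectum, and 0 to 1, 14 to 19, 8 to 15, 5 to 13 and 0 to 2 in anus. Between anus and rectum it gave 27 to 33, between rectum and mid-colon 0 to 1, for neo-epithelium 25 to 28 against rectum, 33 to 38 against anus and 10 to 20 between days, and 0 to 0 and 1 to 7 in the interactions. Whether the share of all genes called moved alike in these fits is not shown. With 3 or 4 mice a group and no read counts, a gene below 1 TPM cannot be told from one that is not expressed.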
